A study of Mus musculus with 9 samples.

Results

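Interferon-stimulated genes are the genes that cells switch on when interferon binds their receptors, and 41 of them were followed in mouse intrahepatic cholangiocarcinoma cells with and without edited *Vcam1*. They were listed by gene name, and no value measured in these cells enters the rule. The list was, however, chosen with earlier results of these data known. All 41 were present among the 55276 gene symbols counted, and all 41 were among the 17672 genes with enough counts to be tested.

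PPTR cells were grown from liver cancer organoids of mice that carried the tamoxifen-inducible recombinase Prom1CreERT2, the floxed tumour suppressor alleles Ptenflx/flx and Tp53flx/flx, and the fluorescent reporter Rosa-ZsGreen. Prom1CreERT2 is Cre recombinase expressed from the Prom1 gene, and every library of the study shares this genotype. RNA was sequenced from control cells with intact *Vcam1* (labelled WT) and from the single-cell clones KO1 and KO2, in which Cas9 had been directed to *Vcam1*, the gene of a cell adhesion molecule that binds integrins. There were 3 libraries per group, 9 in all, taken from different passages of cells kept in serum-containing medium. The labels name no treatment with interferon or a virus. Each knockout genotype is 1 clone, so that an effect of *Vcam1* editing and any other difference between a clone and the WT culture cannot be told apart, and p values measure only the spread between passages of 1 culture.

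Interferons of type I and type III are secreted when a cell senses viral nucleic acid, and type II interferon is secreted by lymphocytes. Their receptors activate JAK kinases, which phosphorylate STAT factors. Among these, STAT2 takes part with IRF9 in a complex that binds the interferon-stimulated response element (ISRE), whereas STAT dimers bind the gamma-activated sequence (GAS). The induced proteins sense or degrade viral RNA, block viral entry and translation, and restrain the pathway itself, and tumour cells can express a part of this set in culture without added interferon.

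The libraries held 53415907 to 125223073 counts. *Vcam1* stood at 248, 221 and 329 CPM (counts of a gene scaled to the total of its library) in the WT libraries, 98.8, 92.4 and 128 in KO1 and 119, 99.4 and 83.0 in KO2. Its log2 fold change was -1.32 (SE 0.20, edgeR adjusted p = 3.5e-04) in KO1 and -1.41 (SE 0.20, adjusted p = 2.9e-04) in KO2, and transcripts of the edited gene remained in both clones. The labelled cell type was checked against 8 biliary markers, whose summed level was 11502 to 12243 CPM in WT libraries, 244 to 452 in KO1 and 176 to 286 in KO2. In the clones the defining epithelial genes were near 0, with *Krt8* at most 0.497 CPM, *Krt18* at most 0.105 CPM and *Krt19* at most 0.226 CPM, while the biliary transcription factor gene *Sox9* did not pass the test in either clone. The summed level of 8 fibroblast genes was 427 to 828 CPM in WT, 10463 to 13043 in KO1 and 6211 to 7521 in KO2, with 5 of the 7 tested genes higher and 1 lower in KO1 and 6 higher in KO2, and *Col1a1* held most of the sum in the clones. Of 12 haematopoietic markers the sum was at most 21.1 CPM in any library, *Ptprc* was at most 0.443 CPM and *Tyrobp* had no count. Others were present. *Cd68* ranged from 3.53 to 7.71 CPM in WT, 4.25 to 6.69 in KO1 and 6.39 to 8.80 in KO2. *Csf1r* ranged from 3.54 to 12.5 CPM in WT, 0.809 to 1.53 in KO1 and 0.424 to 0.617 in KO2. *Fcer1g* was at most 0.0126 CPM in WT, 0.376 to 0.846 in KO1 and 0.444 to 1.23 in KO2. Of 5 plasmacytoid dendritic cell markers the sum was 72.5 to 93.2 CPM in WT, 196 to 347 in KO1 and 171 to 241 in KO2. Nearly all of it was *Bst2*, itself 1 of the 41 genes, and the transcription factor gene *Tcf4*, at 24.9 to 32.1 CPM in WT, 177 to 322 in KO1 and 126 to 174 in KO2. The other markers of that list, *Siglech*, *Tlr7* and *Ccr9*, were at most 0.0417, 0.0749 and 0.129 CPM, and 6 endothelial genes summed to at most 4.46 CPM. Of 6 hepatocyte genes the sum was 252 to 440 CPM in WT, most of it *Hnf4a*, and at most 3.02 CPM in the clones, where *Hnf4a* had no count. The epithelial, hepatocyte, fibroblast and plasmacytoid dendritic cell sums differed between WT and clone libraries without overlap, and their part in the interferon-stimulated genes was not tested. Whether the clones and the WT cells are of the same lineage was not tested either, and every comparison against WT below is between cells that differ in these markers. KO1 replicate 3 stood apart, with 27.7 CPM of the proliferation gene *Mki67* against 216 and 239 CPM in the other KO1 libraries.

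Of the 41 genes, 15 were higher and 10 were lower in KO1 than in WT at an edgeR adjusted p under 0.05, against 29.9% and 30.0% of all tested genes. In KO2, 19 were higher and 7 were lower, against 25.3% and 26.1% of all tested genes. As shares of the 41 genes these were 36.6% higher and 24.4% lower in KO1, and 46.3% higher and 17.1% lower in KO2. The KO1 shares lay nearer to the background than the KO2 shares in both directions. The median log2 fold change of the 41 genes was 0.19 in KO1 and 0.40 in KO2, beside 0.02 and 0.00 over all tested genes. The WT libraries themselves stood apart on these genes, since 32 of the 41 lay below the WT mean in WT replicate 2, with a median log2 difference of -0.18, and 36 lay above it in WT replicate 3, with a median of 0.15. The KO1 median was about the size of these differences between WT libraries, and it was 0.09 without WT replicate 2, 0.07 without KO1 replicate 1 and 0.31 without KO1 replicate 3. Without KO1 replicate 3 the counts were 15 higher and 9 lower in KO1, and 20 higher and 7 lower in KO2. Of all 18372 genes tested in that fit, 5158 were higher and 5265 lower in KO1, and 5036 higher and 5167 lower in KO2. The clones were compared with the same 3 WT libraries, so their calls are not independent of each other.

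The list did not move as 1 block. Of the 41 genes, 11 were higher in both clones, 7 in KO2 only and 4 in KO1 only by the test against WT, which is 26.8%, 17.1% and 9.76% of them beside 18.3%, 5.86% and 10.8% of all tested genes. Another 5 were lower in both clones, 4 were lower in KO1 alone and 2 in KO2 alone, or 12.2%, 9.76% and 4.88% beside 19.4%, 9.44% and 5.90% of all tested genes. The gene *Zbp1* was lower in KO1 and higher in KO2, as were 1.11% of all tested genes, and 7 genes (17.1%) passed in neither clone, beside 28.3%. The shares higher in KO1 only, lower in KO1 only and lower in KO2 only were near the background. Fold changes ran from -10.08 to 2.54 on the log2 scale in KO1 and from -7.61 to 4.80 in KO2. In a bulk library, a lower level in each cell and fewer cells that express the gene cannot be told apart.

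**Figure D1:**
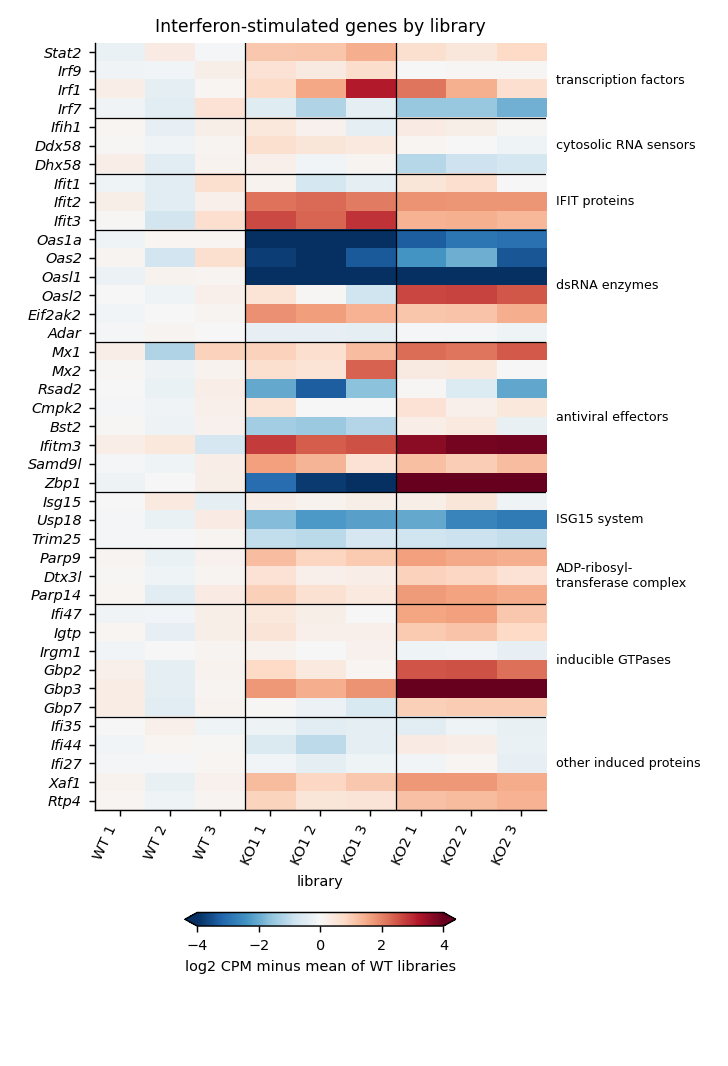
Heat map of the 41 genes (rows, grouped by role) in the 9 libraries (columns). Colour gives log2 CPM minus the mean of the 3 WT libraries, and the scale is capped at 4 in either direction. Rows such as Oasl1 and Oas1a are blue in all 6 clone libraries, Ifitm3 and Ifit2 are red in all 6, and Zbp1 is blue in KO1 and red in KO2.

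Among the 4 transcription factors, *Stat2* was higher in both clones, *Irf1* and *Irf9* were higher in KO1, and *Irf7* was lower in KO2. STAT2 and IRF9 are parts of the ISRE-binding complex, IRF1 is a factor induced early by type II interferon, and IRF7 amplifies the type I response. *Stat2* was read at 9.81, 14.8 and 11.1 CPM in WT, 24.9, 25.5 and 32.0 CPM in KO1 and 18.3, 16.2 and 20.4 CPM in KO2. All 6 clone libraries lay above all WT libraries, and its log2 fold change was 1.21 (SE 0.18, edgeR adjusted p = 3.8e-04) in KO1 and 0.62 (SE 0.18, adjusted p = 0.018) in KO2. The KO2 call was lost when WT replicate 1, WT replicate 3 or KO2 replicate 3 was left out. *Irf1* was read at 96.3, 62.4 and 85.0 CPM in WT, 137, 231 and 725 CPM in KO1 and 354, 215 and 127 CPM in KO2. The clones lay above WT in every library but differed widely among themselves, and KO1 replicate 3 was the highest. The log2 fold change of *Irf1* was 2.17 (SE 0.59, edgeR adjusted p = 0.01) in KO1 and 1.51 (SE 0.58, adjusted p = 0.052) in KO2. Without KO1 replicate 3 the KO1 value was 1.19 (adjusted p = 0.027), and the KO2 change passed under 6 of 15 alternatives. *Irf7* was read at 8.56, 7.01 and 14.1 CPM in WT, 6.71, 4.13 and 7.13 CPM in KO1 and 3.27, 3.27 and 2.47 CPM in KO2. The KO2 libraries lay below all others, with a log2 fold change of -1.72 (SE 0.31, edgeR adjusted p = 0.0013) against WT, while KO1 overlapped WT at a log2 fold change of -0.72 (SE 0.30, adjusted p = 0.063). This KO1 fall passed under 4 of 15 alternatives, limma-voom and DESeq2 among them. *Irf9* was 11.1 ± 1.66 CPM (SD, n = 3) in WT, 16.2 ± 1.89 in KO1 and 11.2 ± 0.0790 in KO2. Its KO1 log2 fold change of 0.55 (SE 0.15, adjusted p = 0.011) did not hold without WT replicate 1, WT replicate 2 or KO1 replicate 1.

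Among the 3 cytosolic RNA sensors, 1 (33.3%) was higher in KO1 and another (33.3%) was lower in KO2. Of all tested genes, 29.9% were higher in KO1 and 26.1% lower in KO2. *Ddx58*, which encodes RIG-I, was read at 38.3, 33.8 and 39.8 CPM in WT, 58.5, 52.2 and 49.3 CPM in KO1 and 39.0, 37.7 and 32.9 CPM in KO2. The KO1 libraries lay above all others, at a log2 fold change of 0.52 (SE 0.12, edgeR adjusted p = 0.0039) against WT, and KO2 differed by a log2 fold change of -0.03 (SE 0.12, adjusted p = 0.86). *Dhx58*, which encodes the related regulator LGP2, was read at 10.5, 6.50 and 9.70 CPM in WT, 10.0, 8.08 and 9.39 CPM in KO1 and 3.96, 4.94 and 5.31 CPM in KO2. Here the KO2 libraries lay below all others, at a log2 fold change of -0.91 (SE 0.22, edgeR adjusted p = 0.0061), and KO1 overlapped WT. *Ifih1*, which encodes the long double-stranded RNA sensor MDA5, ranged from 8.40 to 14.3 CPM over the 9 libraries and passed in neither clone.

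The IFIT proteins bind foreign RNA ends and block translation. *Ifit2* was read at 13.3, 8.21 and 12.8 CPM in WT, 50.7, 53.9 and 47.7 CPM in KO1 and 38.8, 37.9 and 38.3 CPM in KO2. Every clone library lay above every WT library, and the log2 fold change was 2.15 (SE 0.18, edgeR adjusted p = 6.9e-06) in KO1 and 1.74 (SE 0.17, adjusted p = 3.1e-05) in KO2. *Ifit3* was read at 7.04, 4.10 and 10.8 CPM in WT, 42.8, 34.2 and 50.8 CPM in KO1 and 17.9, 18.4 and 17.0 CPM in KO2. The 3 groups did not overlap, and the log2 fold change was 2.54 (SE 0.31, edgeR adjusted p = 9.5e-05) in KO1 and 1.27 (SE 0.30, adjusted p = 0.0059) in KO2. Of the 31-base words in *Ifit3* transcripts, 61.8% also occur in the neighbouring copy *Ifit3b*, so the division of reads between them is uncertain. *Ifit3b* rose as well, by a log2 fold change of 2.70 (SE 0.31, adjusted p = 6.5e-05) in KO1 and 1.12 (SE 0.30, adjusted p = 0.011) in KO2. *Ifit1*, often the most strongly induced of the family, stood at 3.35 ± 1.39 CPM (SD, n = 3) in WT, 2.63 ± 0.801 in KO1 and 4.24 ± 0.949 in KO2 and passed in neither clone.

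The enzymes that act on double-stranded RNA held both the largest falls and clear rises. OAS proteins make the second messenger that activates RNase L, the OASL proteins are their relatives, the kinase PKR (*Eif2ak2*) halts translation, and ADAR converts adenosine to inosine in double-stranded RNA. *Oasl1* was read at 29.5, 38.2 and 37.2 CPM in WT, 0.0150, 0.0522 and 0.0160 CPM in KO1 and 0.154, 0.212 and 0.163 CPM in KO2. The KO1 libraries held 1, 5 and 1 counts of this gene against 3698, 2072 and 2945 in WT, a ratio of 1084-fold lower with a 95% interval for counting error alone of 526 to 2697. In KO2 it was 195-fold lower, a log2 fold change of -7.61 (SE 0.29, edgeR adjusted p = 1.4e-07). *Oas1a* was read at 16.7, 19.7 and 19.9 CPM in WT, 0.240, 0.125 and 0.192 CPM in KO1 and 1.87, 2.50 and 2.35 CPM in KO2. The 3 groups did not overlap, and the log2 fold change was -6.68 (SE 0.28, edgeR adjusted p = 1.4e-07) in KO1 and -3.06 (SE 0.23, adjusted p = 4.8e-06) in KO2. *Oas1a* shares 68.7% of its 31-base words with *Oas1g*, so the level of either is uncertain, but *Oas1g* fell too, at a log2 fold change of -3.15 (SE 0.49, adjusted p = 4.9e-04) in KO2 and 62.7-fold in KO1 (95% counting interval 26.6 to 194). 

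*Oasl2* went another way than its neighbour *Oasl1*, with which it has little sequence in common: 0.112% of the 31-base words of *Oasl1* occur in any other gene. It was read at 1.73, 1.55 and 2.04 CPM in WT, 2.58, 1.83 and 1.01 CPM in KO1 and 11.3, 11.5 and 10.0 CPM in KO2. The KO2 libraries lay above all others, at a log2 fold change of 2.63 (SE 0.31, edgeR adjusted p = 1.0e-04), and KO1 overlapped WT at a log2 fold change of 0.02 (SE 0.30, adjusted p = 0.95). *Oas2* was a low gene, with 101, 23 and 92 counts in WT, 2, 1 and 3 in KO1 and 7, 12 and 3 in KO2. Its ratio to WT was 31.3-fold lower in KO1 (95% counting interval 14.2 to 86.4) and 7.46-fold lower in KO2 (4.80 to 12.2), and both passed the test, with edgeR adjusted p = 2.3e-04 and 0.0024. *Eif2ak2* was 23.0 ± 1.70 CPM (SD, n = 3) in WT, 71.8 ± 10.8 in KO1 and 54.3 ± 7.27 in KO2, log2 fold changes of 1.64 (SE 0.15, adjusted p = 1.1e-05) and 1.24 (SE 0.14, adjusted p = 8.1e-05). *Adar* was lower in KO1 by a small amount, a log2 fold change of -0.35 (SE 0.09, adjusted p = 0.0089), and differed by a log2 fold change of -0.11 (SE 0.09, adjusted p = 0.35) in KO2.

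**Figure D2:**
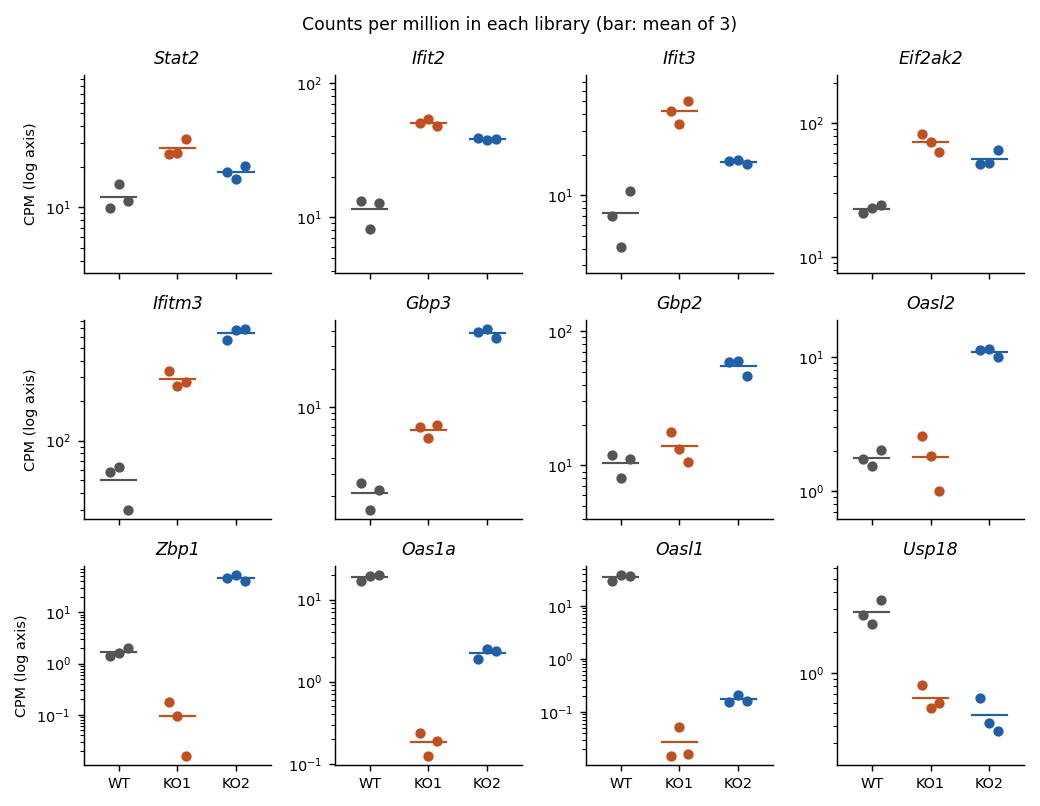
CPM of 12 genes in each library on log axes (points), with the mean of the 3 libraries of each group as a bar. The scale differs between panels. Oasl1 and Oas1a lie below WT in both clones, lowest in KO1, Gbp3 and Ifitm3 rise in steps from WT to KO1 to KO2, and Zbp1 lies below WT in KO1 and above it in KO2.

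The 8 antiviral effectors included *Zbp1*, the only gene of the 41 called in opposite directions in the clones. ZBP1 senses left-handed double-stranded nucleic acid and can start necroptosis. It was read at 1.43, 1.64 and 1.99 CPM in WT, 0.180, 0.0939 and 0.0160 CPM in KO1 and 47.3, 53.1 and 40.7 CPM in KO2. No groups overlapped, and the log2 fold change was -4.09 (SE 0.42, edgeR adjusted p = 3.0e-05) in KO1 and 4.80 (SE 0.35, adjusted p = 4.6e-06) in KO2. KO1 held 12, 9 and 1 counts, which makes it 16.9-fold lower than WT with a 95% counting interval of 11.0 to 27.2, and 482-fold lower than KO2 (318 to 770). *Ifitm3*, which encodes a membrane protein that blocks fusion of entering viruses, was read at 57.4, 63.4 and 29.9 CPM in WT, 333, 256 and 278 CPM in KO1 and 578, 683 and 689 CPM in KO2. Again the groups did not overlap, with a log2 fold change of 2.52 (SE 0.26, edgeR adjusted p = 3.3e-05) in KO1 and 3.69 (SE 0.28, adjusted p = 5.2e-06) in KO2. *Ifitm3* has 20.5% of its 31-base words in other genes. *Mx1*, a dynamin-like GTPase that traps viral nucleocapsids, was read at 2.67, 0.941 and 4.17 CPM in WT, 4.18, 3.47 and 5.17 CPM in KO1 and 10.5, 9.86 and 12.1 CPM in KO2. Only KO2 passed, at a log2 fold change of 2.05 (SE 0.43, edgeR adjusted p = 0.0032), and KO1 stood at a log2 fold change of 0.71 (SE 0.42, adjusted p = 0.17), which passed once WT replicate 3 was left out.

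The remaining antiviral effectors moved in several directions. *Samd9l*, a growth and translation inhibitor, rose from 24.2 ± 3.89 CPM (SD, n = 3) to 57.3 ± 19.7 in KO1 and 52.7 ± 4.77 in KO2, or a log2 fold change of 1.25 (SE 0.24, edgeR adjusted p = 0.0016) and 1.13 (SE 0.24, adjusted p = 0.0035). *Bst2*, which encodes the virion tether tetherin, fell in KO1 from 55.4 ± 7.18 to 21.7 ± 2.44 CPM, or a log2 fold change of -1.35 (SE 0.19, adjusted p = 2.2e-04), and stood at 61.1 ± 14.7 CPM in KO2. *Rsad2*, which encodes viperin, was 1.28 ± 0.233 CPM in WT, 0.257 ± 0.141 in KO1 and 0.815 ± 0.512 in KO2, and only the KO1 log2 fold change of -2.34 (SE 0.60, adjusted p = 0.0075) passed. Its neighbour *Cmpk2*, a mitochondrial nucleotide kinase, passed in neither clone and ranged from 1.62 to 2.66 CPM. *Mx2* was 1.32, 1.23 and 4.45 CPM in the KO1 libraries against 0.876, 0.720 and 0.936 in WT, and its log2 fold change of 1.46 (SE 0.48, adjusted p = 0.026) fell to 0.59 (adjusted p = 0.095) without KO1 replicate 3 and was also lost without any 1 of the WT libraries. The annotation gives *Mx2* as a polymorphic pseudogene.

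In the ISG15 system, the modifier and the enzymes around it parted. *Isg15*, the ubiquitin-like modifier and one of the most used markers of an interferon response, was 13.3, 17.8 and 10.4 CPM in WT, 16.1, 14.7 and 15.8 CPM in KO1 and 16.0, 18.7 and 12.0 CPM in KO2. The groups overlapped and the log2 fold change was 0.17 (SE 0.22, edgeR adjusted p = 0.53) in KO1 and 0.17 (SE 0.22, adjusted p = 0.55) in KO2. *Usp18*, the protease that removes ISG15 and also dampens the type I receptor, was read at 2.68, 2.29 and 3.48 CPM in WT, 0.809, 0.543 and 0.591 CPM in KO1 and 0.651, 0.424 and 0.370 CPM in KO2. Every clone library lay below every WT library, and the log2 fold change was -2.12 (SE 0.32, edgeR adjusted p = 3.2e-04) in KO1 and -2.55 (SE 0.32, adjusted p = 1.5e-04) in KO2. *Trim25*, a ubiquitin ligase that acts on RIG-I, was read at 88.8, 88.6 and 98.4 CPM in WT, 46.9, 43.1 and 58.1 CPM in KO1 and 53.0, 50.9 and 47.7 CPM in KO2. It fell, at a log2 fold change of -0.90 (SE 0.12, edgeR adjusted p = 2.0e-04) in KO1 and -0.86 (SE 0.12, adjusted p = 3.2e-04) in KO2, and the direct log2 difference between the clones was -0.03 with a standard error of 0.12.

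The ADP-ribosyltransferase genes rose together in KO2. PARP9 and DTX3L form a complex that ubiquitylates histones, and PARP14 is a relative that modifies STAT factors. *Parp9* was read at 21.6, 16.6 and 22.6 CPM in WT, 47.1, 36.8 and 41.9 CPM in KO1 and 63.0, 57.4 and 55.4 CPM in KO2. The 3 groups did not overlap, at a log2 fold change of 1.05 (SE 0.15, edgeR adjusted p = 2.1e-04) in KO1 and 1.53 (SE 0.15, adjusted p = 2.5e-05) in KO2. *Parp14* was read at 21.5, 15.2 and 25.4 CPM in WT, 39.3, 30.8 and 26.6 CPM in KO1 and 66.0, 61.8 and 57.2 CPM in KO2. All 3 KO2 libraries were above every other library, at a log2 fold change of 1.57 (SE 0.20, edgeR adjusted p = 1.7e-04), and the KO1 log2 fold change of 0.64 (SE 0.20, adjusted p = 0.02) was 0.39 (adjusted p = 0.097) without WT replicate 2 and 0.42 (adjusted p = 0.13) without KO1 replicate 1. *Dtx3l* was read at 20.4, 17.5 and 21.5 CPM in WT, 29.7, 22.6 and 23.5 CPM in KO1 and 37.1, 35.2 and 29.5 CPM in KO2. Both clones lay above WT in every library, but only KO2 passed, at a log2 fold change of 0.78 (SE 0.15, edgeR adjusted p = 0.002), with KO1 at a log2 fold change of 0.35 (SE 0.15, adjusted p = 0.068). *Dtx3l* and *Parp9* overlap at their starts, and the reads were counted by strand.

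Of the 6 interferon-inducible GTPases, 5 (83.3%) were higher in KO2 and 1 (16.7%) in KO1, beside 25.3% and 29.9% of all tested genes. These proteins gather on the vacuoles of intracellular pathogens and are typical of the type II response in mouse cells. *Gbp3* was read at 2.53, 1.55 and 2.23 CPM in WT, 6.93, 5.74 and 7.17 CPM in KO1 and 39.3, 40.9 and 34.8 CPM in KO2. It rose in steps with no overlap, 3.12-fold in KO1 and 18.1-fold in KO2, or a log2 fold change of 1.64 (SE 0.19, edgeR adjusted p = 7.3e-05) and 4.18 (SE 0.21, adjusted p = 5.9e-07) on the log2 scale. *Gbp2* was read at 11.9, 8.01 and 11.2 CPM in WT, 17.6, 13.4 and 10.7 CPM in KO1 and 58.9, 60.0 and 46.6 CPM in KO2. KO2 lay above all other libraries, at a log2 fold change of 2.41 (SE 0.22, edgeR adjusted p = 2.0e-05), while KO1 overlapped WT at a log2 fold change of 0.42 (SE 0.21, adjusted p = 0.12) and passed only without KO1 replicate 3. *Ifi47* was read at 26.0, 26.6 and 33.1 CPM in WT, 37.8, 33.5 and 28.6 CPM in KO1 and 85.4, 87.8 and 60.4 CPM in KO2. It rose in KO2 by a log2 fold change of 1.45 (SE 0.18, edgeR adjusted p = 1.1e-04) and overlapped WT in KO1. *Igtp* and *Gbp7* also rose in KO2 alone, by a log2 fold change of 0.98 (SE 0.19, adjusted p = 0.0017) and 0.96 (SE 0.23, adjusted p = 0.007). They share 15.9% and 14.7% of their 31-base words with other genes. *Irgm1*, which regulates the other GTPases, was 116 ± 8.38 CPM (SD, n = 3) in WT, 126 ± 6.79 in KO1 and 101 ± 7.46 in KO2 and passed in neither clone.

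The last 5 genes encode induced proteins of other kinds. *Xaf1*, whose product binds the apoptosis inhibitor XIAP, was read at 16.0, 11.8 and 16.6 CPM in WT, 35.2, 25.7 and 30.7 CPM in KO1 and 48.9, 49.1 and 41.0 CPM in KO2. It rose with no overlap between groups, by a log2 fold change of 1.04 (SE 0.17, edgeR adjusted p = 5.5e-04) in KO1 and 1.65 (SE 0.17, adjusted p = 4.2e-05) in KO2. *Rtp4*, a chaperone of receptors, was read at 3.16, 2.62 and 3.19 CPM in WT, 5.56, 4.16 and 4.29 CPM in KO1 and 6.77, 7.25 and 7.78 CPM in KO2. It rose by a log2 fold change of 0.64 (SE 0.19, edgeR adjusted p = 0.014) in KO1, a call lost without WT replicate 2 or KO1 replicate 1, and by a log2 fold change of 1.28 (SE 0.19, adjusted p = 3.6e-04) in KO2. *Ifi35* was read at 40.0, 46.5 and 35.9 CPM in WT, 35.1, 30.2 and 31.2 CPM in KO1 and 30.3, 36.3 and 33.0 CPM in KO2. Only its KO1 log2 fold change of -0.34 (SE 0.13, edgeR adjusted p = 0.043) passed, and it was lost under 7 of 15 alternatives. *Ifi27* ranged from 35.6 to 48.9 CPM and *Ifi44* from 0.365 to 0.994 CPM over the 9 libraries, and neither passed in either clone. Of the genes not yet named for shared sequence, *Isg15*, *Rtp4* and *Ifit1* had 12.8%, 12.5% and 10.5% of their 31-base words in other genes.

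**Figure D3:**
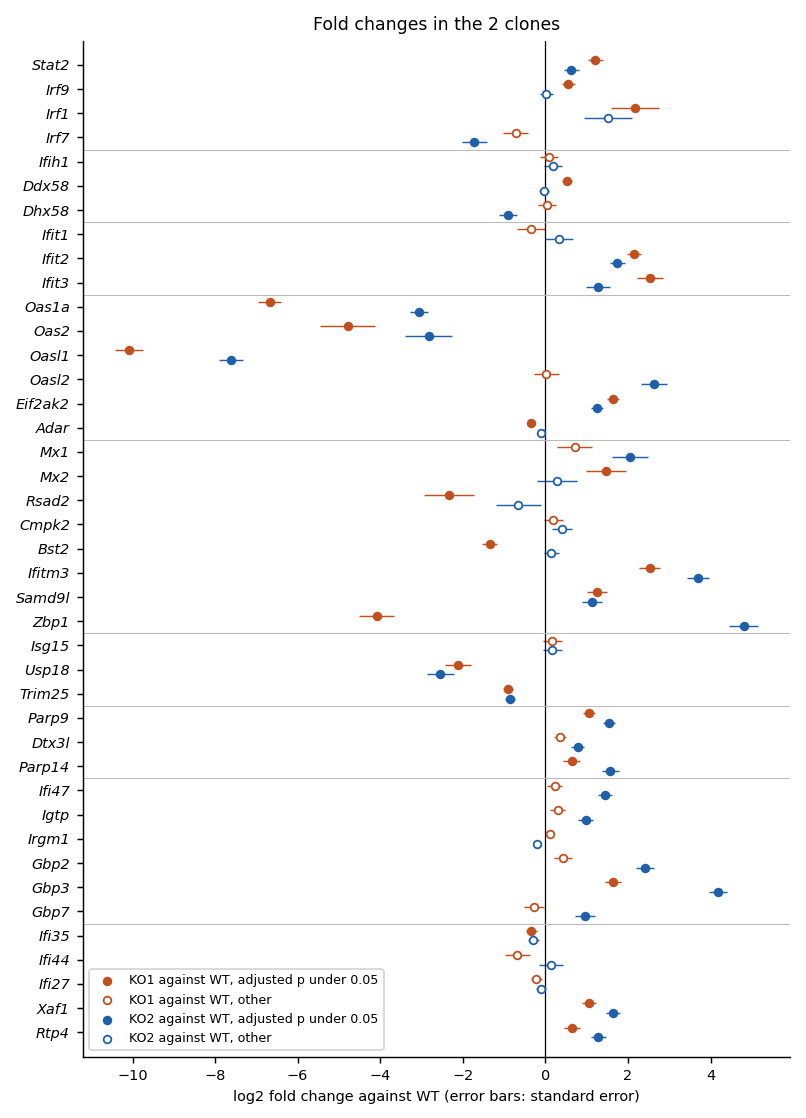
Log2 fold change of each of the 41 genes against WT, with the standard error as a bar, for KO1 (orange) and KO2 (blue). Filled points passed an adjusted p of 0.05 in edgeR's quasi-likelihood test. Values run from -10.08 for Oasl1 in KO1 to 4.80 for Zbp1 in KO2, and filled points lie on both sides of 0 in both clones.

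Levels were compared between genes only per kilobase of exon. On this scale *Ifitm3* was the highest of the 41 genes in every group, at a mean of 74.1 CPM per kilobase in WT, 426 in KO1 and 959 in KO2. *Bst2* followed in WT at 61.4 and in KO2 at 67.6, and in KO1 it stood at 24.1, below *Irf1*, *Ifi27* and *Ifit3*. *Irf1* stood at 20.4 in WT, 91.7 in KO1, where it came next to *Ifitm3*, and 58.4 CPM per kilobase in KO2. KO1 replicate 3 held the highest of its KO1 values. At the other end, *Ifi44* was the lowest in WT at 0.129 CPM per kilobase, and *Oas2* and *Oasl1* were the lowest in both clones.

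The clones were also compared with each other, a difference that does not use the level in WT. The WT libraries still entered the filter, the scaling and the estimate of spread of this fit. Of the 41 genes, 8 were higher and 17 lower in KO1 than in KO2 by edgeR, against 20.2% and 18.5% of all tested genes, and the median log2 difference was -0.43 beside 0.04 over all tested genes. The higher group held *Stat2*, *Irf9*, *Irf7*, *Ddx58*, *Dhx58*, *Ifit3*, *Eif2ak2* and *Irgm1*, and the difference was more than 2-fold for *Ifit3* alone among them. The lower group held *Zbp1*, *Oas1a*, *Oasl1* and *Oasl2*, with log2 differences of -8.89, -3.61, -2.47 and -2.60. It also held 5 of the 6 GTPases, from a log2 difference of -2.54 (SE 0.20, adjusted p = 2.3e-05) for *Gbp3* to -0.67 (SE 0.18, adjusted p = 0.018) for *Igtp*, with *Irgm1* the exception. *Mx1*, *Rsad2*, *Bst2*, *Ifitm3*, *Parp9*, *Parp14*, *Xaf1* and *Rtp4* made up the rest. Without KO1 replicate 3 the counts were 4 higher and 15 lower, beside 3038 and 2973 of all 18372 genes tested in that fit. Counts were 3 higher without KO1 replicate 1, KO2 replicate 1 or KO2 replicate 2, 5 higher without KO2 replicate 3, and 11 lower without KO1 replicate 2 or KO2 replicate 2.

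With the 6 libraries of both clones taken as 1 group, 14 of the 41 genes were higher and 6 lower than in WT, against 21.7% and 21.2% of all tested genes. The median log2 fold change was 0.47, beside 0.07 over all tested genes. In this fit the difference between the clones counts as spread. *Oasl2* did not pass here and passed with the average of the 2 clones, where that difference is kept out of the spread. *Zbp1*, which moved in opposite directions in the clones, passed in neither fit. In 13 of the 41 genes all 6 clone libraries lay above all WT libraries, and in 5 they lay below. The same held for 21.2% and 23.0% of all tested genes. Without WT replicate 1 the count of higher genes was 8, and without WT replicate 2 it was 9. Leaving out KO1 replicate 3 gave 17 higher and 7 lower, beside 3878 and 4035 of all 17369 genes tested in that fit.

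Several of the genes lie side by side in families, and neighbours did not always move together. *Oasl2* (chr5:114896936-114912234, GRCm38) and *Oasl1* (chr5:114923240-114937915) lie 11.0 kb apart on the same strand of chromosome 5, and *Oasl1* fell in KO2 while *Oasl2* rose. Further along that chromosome *Oas2*, *Oas3*, *Oas1g* and *Oas1a* fell in both clones. Between them, *Oas1c* fell in KO2, at a log2 fold change of -1.87 (SE 0.36, edgeR adjusted p = 0.0018), and *Oas1b*, annotated as a polymorphic pseudogene, passed in neither clone. On chromosome 19, *Ifit2*, *Ifit3* and *Ifit3b* rose in both clones, and *Ifit1bl1*, which lies between *Ifit3* and *Ifit3b*, fell, at a log2 fold change of -1.90 (SE 0.29, adjusted p = 3.6e-04) in KO1 and -3.99 (SE 0.33, adjusted p = 9.4e-06) in KO2. *Ifit1* lies 27.5 kb from *Ifit3b* and passed in neither. In the Gbp family on chromosome 3, the tested genes *Gbp5*, *Gbp7*, *Gbp3*, *Gbp2b* and *Gbp2* were all higher in KO2, and in KO1 *Gbp3* rose while *Gbp5* fell 9.45-fold (95% counting interval 4.37 to 24.3). *Rsad2* and *Cmpk2* lie 12.8 kb apart on chromosome 12, and only *Rsad2* was called, in KO1.

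**Figure D4:**
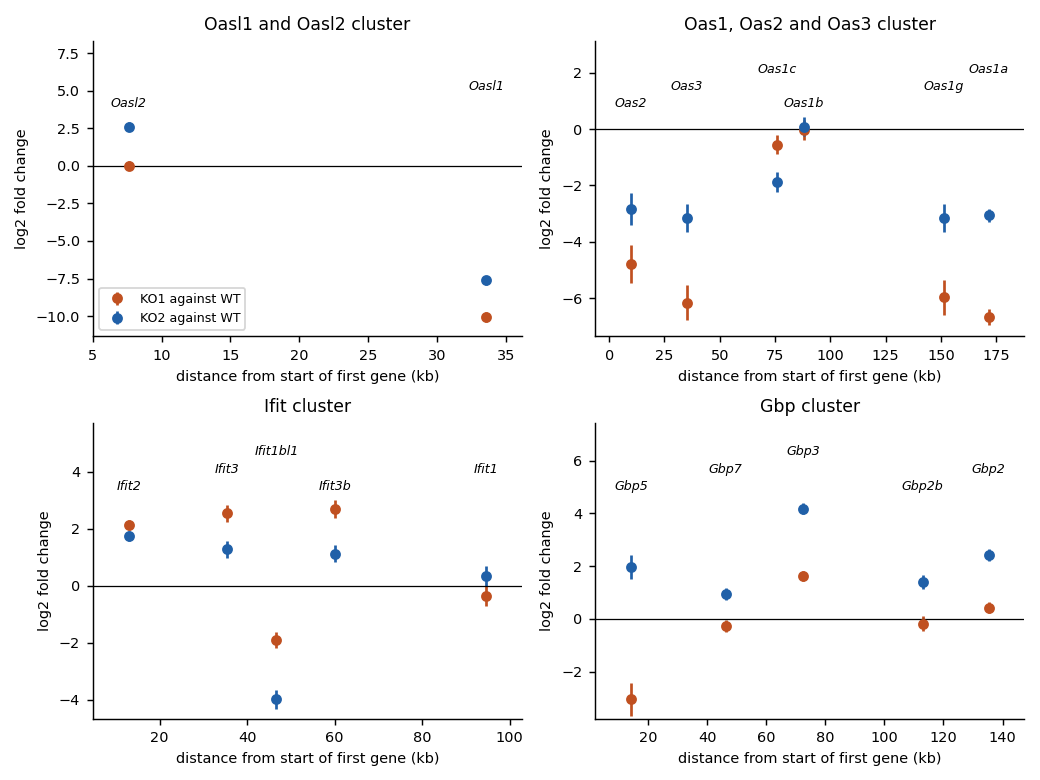
Log2 fold change against WT of neighbouring genes (points, with the standard error as a bar) by the distance of the middle of each gene, in kilobases, from the start of the first gene, for KO1 (orange) and KO2 (blue). Oasl2 lies near or above 0 and Oasl1 at -10.08 and -7.61, Oas1b stays near 0 between genes that fell, and the Gbp genes lie above 0 in KO2.

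Promoter sequences were read to see what letters stand around the starts of genes of different behaviour. RefSeq windows of GRCm38.p6, from 250 bases before to 50 after each start, were given for 31 of the 41 genes. No window was given for *Dhx58*, *Oas2*, *Mx1*, *Mx2*, *Zbp1*, *Usp18*, *Parp9*, *Parp14*, *Ifi27* and *Rtp4*. The core of the ISRE was searched on both strands as GAAANNGAAA and the GAS as TTCNNNGAA, where N is any base and copies may overlap. Of the 31 genes, 16 (51.6%) held the ISRE core and 10 (32.3%) the GAS, against 3.99% and 9.55% of the 27025 genes with a window. Among the 31, the window held the ISRE core for 6 of 11 genes higher in KO1 and 3 of 7 lower. For KO2 the core was in the window of 8 of 14 genes higher and 1 of 4 lower. These counts include copies after the start. The only copies of *Ifih1*, *Ddx58*, *Eif2ak2* and *Ifitm3* begin 2 to 32 bases after it. The core was also in the window of 7 of 13 genes that passed in neither direction in each clone. Over the whole window, the share among these (53.8%) was close to that among the higher genes (54.5% in KO1 and 57.1% in KO2). A match describes letters and is not evidence of a bound site, and no match says only that these letters are missing from the window.

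The 160 bases before the start are printed for neighbours and family members that parted in the clones, 5′ to 3′ on the strand of the gene, with the ISRE core in capitals. *Oasl1* (chr5:114923080-114923239, plus strand) fell in both clones and *Oasl2* (chr5:114896774-114896933, plus strand) rose in KO2, and neither window holds the core. *Oas1a* (chr5:120907526-120907685, minus strand), which fell in both clones, holds 2 overlapping copies that begin 20 and 14 bases before its start.
Oasl1: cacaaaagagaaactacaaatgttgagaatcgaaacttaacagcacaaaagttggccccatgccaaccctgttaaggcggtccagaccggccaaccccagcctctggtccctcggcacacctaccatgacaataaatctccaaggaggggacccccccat
Oasl2: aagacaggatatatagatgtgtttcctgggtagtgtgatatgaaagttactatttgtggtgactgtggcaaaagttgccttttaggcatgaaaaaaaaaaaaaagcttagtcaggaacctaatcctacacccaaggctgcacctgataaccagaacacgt
Oas1a: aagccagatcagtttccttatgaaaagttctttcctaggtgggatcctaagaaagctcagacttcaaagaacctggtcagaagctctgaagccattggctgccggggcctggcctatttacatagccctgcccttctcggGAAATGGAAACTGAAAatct

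*Ifit3* (chr19:34583369-34583528, plus strand), which rose in both clones, and *Ifit1* (chr19:34640729-34640888, plus strand), which passed in neither, hold 2 copies each. *Isg15* (chr4:156200819-156200978, minus strand), which passed in neither, holds 3 overlapping copies. *Gbp3* (chr3:142559884-142560043, plus strand), with the largest rise of the GTPases, holds 2. *Gbp3* has 2 RefSeq windows, of which the one with more copies is shown, and the other holds no copy.
Ifit3: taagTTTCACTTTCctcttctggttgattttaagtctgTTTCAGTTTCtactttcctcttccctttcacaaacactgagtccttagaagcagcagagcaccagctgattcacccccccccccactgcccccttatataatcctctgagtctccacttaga
Ifit1: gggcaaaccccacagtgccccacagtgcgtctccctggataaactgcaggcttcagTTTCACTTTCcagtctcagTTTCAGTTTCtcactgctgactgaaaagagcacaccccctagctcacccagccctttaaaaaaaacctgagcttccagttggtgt
Isg15: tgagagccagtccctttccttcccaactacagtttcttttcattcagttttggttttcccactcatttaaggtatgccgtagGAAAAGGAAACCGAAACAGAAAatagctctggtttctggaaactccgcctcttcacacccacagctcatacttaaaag
Gbp3: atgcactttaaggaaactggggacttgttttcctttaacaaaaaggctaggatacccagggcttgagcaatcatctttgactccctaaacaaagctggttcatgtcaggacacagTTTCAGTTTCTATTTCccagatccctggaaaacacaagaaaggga
The core stood before genes that rose (*Ifit3*, *Gbp3*), genes that passed in neither clone (*Ifit1*, *Isg15*) and a gene that fell (*Oas1a*).

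Interferon transcripts themselves were nearly absent. Of 21 interferon genes, 13 had no count in any library and 7 others had at most 6 counts in any library. The limit that a count of 0 allows is 3 counts, or 0.0239 to 0.0554 CPM depending on the library. Only *Ifnz* could be tested, at 0.199, 0.240 and 0.202 CPM in WT, 0.0599, 0.0939 and 0.208 CPM in KO1 and 0.274, 0.269 and 0.296 CPM in KO2, and it passed in neither clone. Type I, II and III interferon RNA was thus not detectable at this depth in any group beyond a few counts, *Ifnz* aside.

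The receptors were present in all groups and changed moderately. *Ifnar1* and *Ifnar2*, the chains of the type I receptor, stood at 64.7 ± 2.45 and 44.5 ± 3.53 CPM (SD, n = 3) in WT. *Ifnar1* was slightly higher in both clones, by a log2 fold change of 0.29 (SE 0.09, edgeR adjusted p = 0.02) and 0.27 (SE 0.09, adjusted p = 0.03), and *Ifnar2* passed in neither. *Ifngr1*, the binding chain of the type II receptor, fell in KO1 from 234 ± 31.3 to 107 ± 25.8 CPM, or a log2 fold change of -1.13 (SE 0.20, adjusted p = 8.0e-04), and stood at 280.1 ± 39.4 CPM in KO2. *Ifngr2* passed in neither. *Ifnlr1*, specific to the type III receptor, fell in both clones, at a log2 fold change of -0.93 (SE 0.25, adjusted p = 0.0095) and -1.48 (SE 0.25, adjusted p = 9.6e-04), and its partner *Il10rb* rose in KO2 by a log2 fold change of 0.43 (SE 0.12, adjusted p = 0.015).

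Kinase and STAT genes moved in both directions. *Stat3* rose in both clones, by a log2 fold change of 0.92 (SE 0.15, edgeR adjusted p = 6.0e-04) and 0.43 (SE 0.15, adjusted p = 0.036). *Jak2*, which serves the type II receptor, fell in both clones, from 272 ± 14.1 CPM to 71.0 ± 4.91 in KO1 and 169 ± 19.0 in KO2. *Jak1* rose in KO1 by a log2 fold change of 0.32 (SE 0.10, adjusted p = 0.018) and *Tyk2* fell in KO2, at a log2 fold change of -0.95 (SE 0.15, adjusted p = 5.4e-04).

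**Figure D5:**
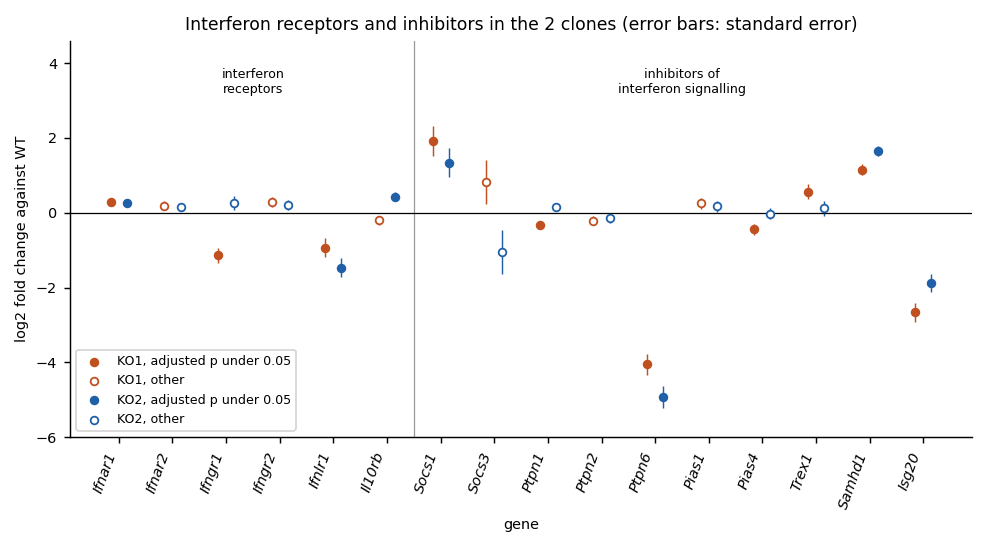
Log2 fold change against WT, with the standard error as a bar, of interferon receptors and genes listed as inhibitors of the pathway in KO1 (orange) and KO2 (blue). Filled points passed an adjusted p of 0.05. Socs1 and Samhd1 lie above 0 in both clones, and Ptpn6 and Isg20 lie well below. Isg20, drawn with the inhibitors, encodes an interferon-induced antiviral exonuclease.

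Among other interferon regulatory factor genes, *Irf8*, best known from myeloid cells, ranged from 5.15 to 7.22 CPM in WT and was 96.9-fold lower in KO1 (95% counting interval 57.6 to 178) and 132-fold lower in KO2 (69.2 to 289). *Irf5* rose in KO2 by a log2 fold change of 1.22 (SE 0.31, edgeR adjusted p = 0.0089). Of 10 genes listed as inhibitors, 3 rose and 4 fell in KO1, and 2 rose and 2 fell in KO2. These shares of 30% and 40% in KO1 and 20% and 20% in KO2 stand beside 29.9% and 30.0%, and 25.3% and 26.1%, of all tested genes. The 10 genes include *Isg20*, which encodes an interferon-induced antiviral exonuclease and is not itself an inhibitor of signalling. *Samhd1*, which depletes nucleotides, and *Socs1*, which blocks JAK kinases, rose in both clones, *Samhd1* by a log2 fold change of 1.15 (SE 0.14, adjusted p = 8.3e-05) and 1.65 (SE 0.14, adjusted p = 1.2e-05) and *Socs1* by a log2 fold change of 1.92 (SE 0.40, adjusted p = 0.0023) and 1.34 (SE 0.39, adjusted p = 0.017). The phosphatase gene *Ptpn6* fell, at a log2 fold change of -4.05 (SE 0.28, adjusted p = 2.3e-06) and -4.92 (SE 0.29, adjusted p = 1.4e-06), and the exonuclease gene *Isg20* fell at a log2 fold change of -2.66 (SE 0.26, adjusted p = 2.1e-05) and -1.88 (SE 0.25, adjusted p = 2.1e-04). Of 12 tested genes of nucleic acid sensing, 3 rose and 1 fell in KO1, and 7 rose and 2 fell in KO2, or 25% and 8.33% in KO1 and 58.3% and 16.7% in KO2. *Tlr3*, the endosomal sensor of double-stranded RNA, and its adaptor *Ticam1* rose in KO1 by a log2 fold change of 1.44 (SE 0.18, edgeR adjusted p = 1.0e-04) and 0.99 (SE 0.13, adjusted p = 1.7e-04). Their KO2 libraries also lay above all WT libraries. *Tlr3* ranged from 10.7 to 14.1 CPM in KO2 and 6.63 to 9.59 in WT, and *Ticam1* from 23.2 to 28.8 in KO2 and 15.6 to 18.5 in WT. *Tmem173*, which encodes STING, rose in KO2 by a log2 fold change of 1.35 (SE 0.15, edgeR adjusted p = 7.7e-05).

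A longer list of 69 other interferon-induced genes, of which 66 were tested, gave 20 higher and 19 lower in KO1 and 31 higher and 19 lower in KO2. As shares these were 30.3% and 28.8% in KO1 and 47.0% and 28.8% in KO2, beside 29.9% and 30.0% of all tested genes in KO1 and 25.3% and 26.1% in KO2. The KO1 shares were at the background, and the KO2 share of higher genes was above it. The median log2 fold change of the list was -0.19 in KO1 and 0.57 in KO2. The largest changes again went both ways. *Slfn2*, a growth regulator of the Schlafen family, ranged from 22.7 to 27.8 CPM in WT. KO1 held 3 counts of it in all, 1808-fold lower (95% counting interval 618 to 8771), and KO2 was lower at a log2 fold change of -3.43 (SE 0.39, edgeR adjusted p = 7.0e-05). *Trim14* fell, at a log2 fold change of -5.15 (SE 0.37, adjusted p = 3.4e-06) and -5.92 (SE 0.40, adjusted p = 2.7e-06) and *Oas3* fell at a log2 fold change of -6.16 (SE 0.61, adjusted p = 2.5e-05) and -3.16 (SE 0.50, adjusted p = 5.7e-04). *Gvin1*, a very large inducible GTPase, rose by a log2 fold change of 2.67 (SE 0.27, adjusted p = 2.7e-05) and 4.71 (SE 0.29, adjusted p = 1.7e-06). Its libraries ranged from 1.28 to 2.38 CPM in WT, 10.3 to 14.8 in KO1 and 37.6 to 58.1 in KO2.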

How the data were processed

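Messenger RNA of 9 libraries was counted by the authors with kallisto 0.46.1 on GRCm38 (mm10) transcripts of GENCODE, with strand, and the deposited table holds estimated counts per gene symbol, not normalized. The values were whole numbers. Groups follow the genotype labels. The counts were scaled with TMM and filtered with filterByExpr, and 17672 genes were tested in edgeR 4.0.16 (R 4.3.3) by the quasi-likelihood test, with Benjamini-Hochberg adjustment over all of them at 0.05. Clones were tested in a fit of 3 groups, and both together in a fit of 2. Standard errors were taken from the fold change and its F statistic, with a prior count of 2 for log2 levels. Counting intervals are exact binomial and cover counting error only. Positions are from GENCODE vM21, another release than that of the counts. The code was tested on simulated data. Alternatives were limma-voom (limma 3.58.1, the study's test), DESeq2 1.42.0, upper-quartile scaling, other filters, a 2-fold threshold, fits on 6 libraries, the average of the clones and leaving out each library.

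The genes and lists were chosen with earlier results of these data known. Values in every library are given for up to 3 genes per role with the largest log2 fold change among those called against WT with a mean of at least 1 CPM, for genes called in opposite directions, and for *Vcam1*. Ligands and receptors were each accounted for, and other lists by up to 3 genes. Some genes of the signalling and marker lists are not reported here. *Isg15*, *Mx2*, *Samhd1*, *Gvin1* and genes beside the 41 in the genome were given values after these had been seen.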

Additional observations from a re-analysis of the deposited data

Results flagged for a closer look

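Because both clones were compared with the same 3 WT libraries, a different effect of the clones is the log2 difference of KO1 minus KO2, which was tested directly in edgeR's quasi-likelihood fit. At an adjusted p under 0.05 it was above 0 for *Ifit3* (1.26), *Irf7* (0.99), *Dhx58* (0.95), *Stat2* (0.59), *Ddx58* (0.54), *Irf9* (0.53), *Eif2ak2* (0.40) and *Irgm1* (0.32). It was below 0 for *Zbp1* (-8.89), *Oas1a* (-3.61), *Oasl2* (-2.60), *Gbp3* (-2.54), *Oasl1* (-2.47), *Gbp2* (-1.99), *Rsad2* (-1.68), *Bst2* (-1.49), *Mx1* (-1.34), *Gbp7* (-1.23), *Ifi47* (-1.23), *Ifitm3* (-1.17), *Parp14* (-0.94), *Igtp* (-0.67), *Rtp4* (-0.64), *Xaf1* (-0.60) and *Parp9* (-0.48). The calls of *Rsad2*, *Eif2ak2* and *Irgm1* were lost under 10 of 14, 9 of 15 and 8 of 15 alternatives. Those of *Stat2*, *Irf9*, *Irf7*, *Mx1*, *Parp9*, *Igtp*, *Xaf1* and *Rtp4* were lost under 2 to 6 of 15. The cause of these differences was not tested.

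*Mx2* in KO1 replicate 3, at 4.45 CPM, lay far above the other 5 clone libraries, with 0.869 of the whole range of the 6 libraries between it and its nearest neighbour, which is above Dixon's critical value. Chance alone flags about 1 in 20 groups of values drawn from a single population. These 6 libraries come from both KO1 and KO2, so that rate need not hold here. In all, 41 genes were examined. The same library had the highest *Irf1* and the lowest *Mki67* level of the study, and the part of this library in the value was not tested.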

How the results depend on the processing

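None of the genes called changed direction under an alternative. Of 2446 values of single genes under an alternative, 2267 kept their side of the threshold, 118 lost the call and 61 gained one. Of the genes called, 20 of 25 in KO1, 25 of 26 in KO2, 14 of 25 between the clones and 13 of 20 with both clones together were called under every alternative in which they were tested. These values of single genes leave out the 2-fold threshold, which was applied to counts of genes only.

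Leaving out 1 library at a time gave medians of the log2 fold change of 0.07 to 0.31 in KO1 against WT and 0.31 to 0.57 in KO2 against WT, 3 to 8 higher and 11 to 19 lower genes in KO1 against KO2, and 8 to 17 higher genes with both clones against WT. A test against a 2-fold change left 5 higher genes in KO1, 11 in KO2, 0 higher and 7 lower between the clones in edgeR (10 higher and 21 lower at an unadjusted p under 0.05 against no change; DESeq2 and limma-voom were not run at this threshold), and 4 higher with both clones. With a mean of at least 1 CPM required, the median was 0.66 in KO2 and -0.19 between the clones, with fewer genes in it. Without a filter, 5 genes were higher in KO1 than in KO2. The average of the clones gave 10 lower genes against WT. Limma-voom, DESeq2, upper-quartile scaling and fits on 6 libraries moved no count of genes by over 1.5 times. Apart from the fits without KO1 replicate 3, the counts over all tested genes under these alternatives are not given here. From the listed genes alone, a shift of the list and a shift of all genes cannot be told apart. The cause of these shifts was not tested. No paired analysis was possible because the labels give no replicate numbers.

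Depth limits *Oas2* and *Oasl1* in both clones and *Zbp1* in KO1, where single libraries held 1 to 15 counts, and it limits the interferon genes. The 3 libraries per clone show the spread of 1 clone only.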
